A study of Saccharomyces cerevisiae with 66 samples.

Results

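STR3 encodes cystathionine beta-lyase, the enzyme that cleaves cystathionine to homocysteine on the way from cysteine to methionine. Nucleosome-depleted regions (NDRs) are stretches of open chromatin, mostly at promoters. Of the 4828 NDRs of budding yeast in the tables, 2 lie upstream of STR3, and they were taken by their identifiers, with the 10 other NDRs within 10 kb as context. They are called here the distal NDR (chrVII.156271 in the tables, in sacCer3 positions) and the proximal NDR (chrVII.156076). STR3 was chosen by an earlier reading of the same tables, in which its targeted-to-control differences were in view, so its levels are given as a description with no test.

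Proximity to a viewpoint (VP) was read by MTAC. A fusion of LacI with M.CviPI, a methyltransferase for GpC, sits on a LacO array at the VP, and DNA with 5-methylcytosine is then pulled down and sequenced. There are 66 libraries by the labels, 2 for each of 33 conditions, and 21 tables each compare a targeted strain, which carries an array, with a control strain, which carries none. In 11 of them the array had 256 LacO copies and the fusion was induced for 2 h, with the VP at YBP2, PUS2, OLE1, CDC43 or PCL10 on chromosome VII, SHC1 or LSM4 on V, VHR1 on IX, or LHS1, MBR1 or MNR2 on XI. The labels hold a single 2 h control group without a methionine, mating-type or sugar label, and these 11 were taken to share it. In 4 tables the YBP2 VP carried 4, 8, 16 or 256 copies and induction lasted 1 h, again with a shared control. The other 6 have controls of their own: TRP2 on V with (+met) and without (-met) methionine, and TAF2 near MAT on III in MATa and MATalpha cells given glucose (D) or galactose (G).

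All the strains used carried the ade2-1, can1-100, ura3-1 and trp1-1 alleles, together with his3-11,15 and leu2-3, 112. At ADH1 they held the LacI-SV40NLS-M.CviPI fusion under 2xlexO-GAL1corepr, and LexA-ERHBD-VP16AD under ADH1pr, marked with LEU2. Arrays were marked with HIS3. Induction was with 2 nM β-estradiol in both targeted and control cells, so control cells hold the free fusion protein and its background methylation. The MAT strains and their controls also held GAL10pr-HO, marked with URA3, whose HO endonuclease starts mating-type switching in galactose. The other strains were MATa. Growth was in synthetic media with or without methionine, and only the TRP2 labels say which. By the study's text the SHC1 cells grew without it, and the medium of the shared 2 h control is not given in the sources used here. The sample labels do not say which control SHC1 was compared with.

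In yeast, the activator Met4 is brought to sulfur-metabolism promoters by the DNA-binding factors Cbf1, which recognises CACGTG, and Met31 and Met32, which recognise a core that includes TGTGGC. These genes are active when methionine is scarce. M.CviPI methylates the cytosine of GC dinucleotides and works mainly where nucleosomes are absent, so the signal at an NDR depends on its GC sites and openness as well as on its nearness to the array.

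STR3 (YGL184C) lies on the minus strand at VII 154615 to 156012, and the meiotic recombination gene MND1 (YGL183C) on the same strand at 156543 to 157285. The positions of both NDRs fall in the 530 bases between the 2 genes, 64 and 259 bases upstream of the first coding base of STR3. They are 195 bases apart, and the authors' counting gave a fragment that overlaps several NDRs to each of them, so the pair can share reads. The sequences are shown because they hold the GC sites that are read out and the letters of the Met31 and Met32 core. They are from RefSeq R64, the sacCer3 sequence, minus strand, in the direction of STR3 transcription, with capitals marking TGTGGC on either strand. The distal stretch is chrVII:156251-156450 and the proximal stretch, around its copy nearest to STR3, is chrVII:156080-156109.
Distal NDR: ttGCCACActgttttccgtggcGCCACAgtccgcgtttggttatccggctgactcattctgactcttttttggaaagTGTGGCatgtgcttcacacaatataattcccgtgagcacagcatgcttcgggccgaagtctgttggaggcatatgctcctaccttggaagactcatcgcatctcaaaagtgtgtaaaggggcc
Proximal NDR: tatacagtcattGCCACAcatcccatagct

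The 530 intergenic bases held 34 GC sites, 5 copies of TGTGGC counted on both strands and 0 copies of CACGTG. The copies of TGTGGC started 80, 199, 356, 411 and 431 bases upstream of the STR3 coding sequence. By the study's list of NDRs, an identifier gives the start of the NDR. NDRs differ in length, and windows of 300 bases from each start were searched in place of the NDRs themselves, so that the proximal window runs on into the distal NDR. In these windows TGTGGC was present for 8.76% of the 4828 NDRs, and 3 or more copies were present in 4 of them (0.0829%). Both STR3 windows were among those 4, with 3 copies each, and as the windows overlap they share a copy. CACGTG was present in 4.68% of all windows. The distal window held 20 GC sites and the proximal window 19, against a median of 11. Fewer GC sites than in the distal window were found in 95.3% of windows. Over all 4828 NDRs, the number of GC sites and the median level had a Spearman correlation of 0.47, given as a description across sites that share their libraries.

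The level of an NDR is its base mean, the authors' mean of normalized reads over the 2 targeted and 2 control libraries of a table. It carries no replicate error, and control reads are part of it. Among tables that share a control, ratios of base means therefore understate those of the targeted strains. Between tables with different controls, a difference can come from either. Tables were brought to one scale by the median ratio over NDRs, and all levels below are scaled in this way unless said otherwise. Pearson correlations of log2 levels across NDRs were 0.978 to 0.993 within the 11 tables with the shared 2 h control, and 0.876 to 0.974 between these and the other tables. The 2 TRP2 tables, with separate controls, had 0.980.

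Among the 11 tables with the shared 2 h control, the distal STR3 NDR was highest with the array at CDC43, a gene for a protein prenyltransferase subunit, where its level was 585.0 normalized reads. It stood at 359.8 with the array at PCL10, a gene for a Pho85 cyclin. The other VPs of chromosome VII gave 285.8 at YBP2, 265.6 at PUS2 and 231.1 at OLE1. On other chromosomes the level was 305.0 at SHC1, 242.8 at LHS1, 220.0 at VHR1, 215.0 at MBR1, 213.6 at LSM4 and 187.3 at MNR2. The CDC43 and PCL10 tables therefore stood above the remaining 9, and within these 11 the ranges for VPs on chromosome VII (231.1 to 585.0) and elsewhere (187.3 to 305.0) overlapped. The TRP2 and MAT tables, also labelled 2 h with 256 copies but with other controls, ran from 130.3 to 391.1. TRP2 -met, at 391.1, was above PCL10. Within the 11, the highest level was 3.12 times the lowest.

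The proximal NDR was lower in all 21 tables. Its level was 169.0 at CDC43, 82.3 at PCL10, 64.9 at YBP2, 59.5 at PUS2 and 45.3 at OLE1. For VPs on other chromosomes it was 60.7 at SHC1, 54.1 at LHS1, 45.2 at MBR1, 42.8 at MNR2, 41.1 at VHR1 and 39.7 at LSM4. CDC43 and PCL10 were again the 2 highest, and the range was wider, at 4.25 times from lowest to highest. The ratio of distal to proximal level was 3.46 at CDC43, the smallest of the 21 tables, and 8.01 at TRP2 +met, the largest.

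In the order of the distal levels, the step from CDC43 to PCL10 was 0.70 on the log2 scale and that from PCL10 to SHC1 was 0.24. For scale, the SD of the log2 level over the 11 tables had a median of 0.09 among the 706 NDRs with a median level of 100 or more. The steps among LHS1, OLE1, VHR1, MBR1 and LSM4, of 0.01 to 0.07, were smaller than this. Those from SHC1 to YBP2 (0.09), YBP2 to PUS2 (0.11) and PUS2 to LHS1 (0.13) were close to it, and the last step, from LSM4 to MNR2, was 0.19. The SD over the 11 tables was 0.46 at the distal and 0.61 at the proximal NDR, which ranked 26 and 12 among the 3200 NDRs with a median level of 20 or more.

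Among the VPs of chromosome VII, the distal level went with the distance of the VP gene from STR3, except for the last 3. CDC43 is 58.4 kb and PCL10 100.0 kb from the distal NDR, and they gave the 2 highest levels. PUS2 is at 227.9 kb, YBP2 at 234.8 kb and OLE1 at 243.1 kb, and YBP2 stood above the nearer PUS2. With 5 VPs this order is a description only.

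**Figure D1:**
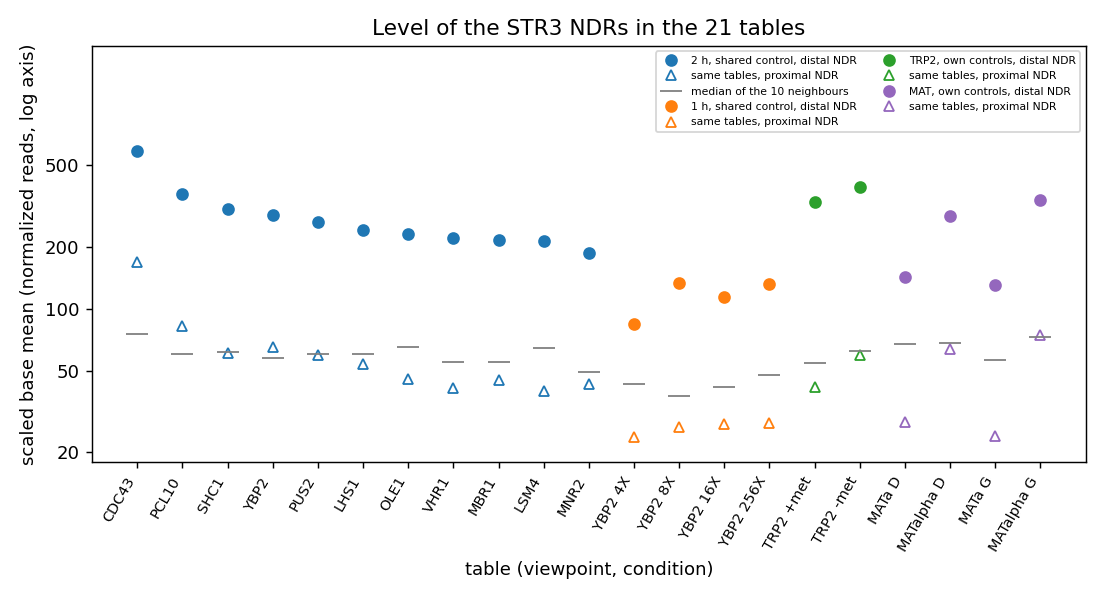
Scaled base mean (normalized reads, log axis) of the distal (filled circles) and proximal (open triangles) STR3 NDRs in each of the 21 tables, with the median of the 10 neighbouring NDRs as grey dashes, coloured by series. Each point is the authors' mean over targeted and control libraries, so no error is drawn. The distal NDR is highest at CDC43 (585.0) and lowest at YBP2 with 4 copies at 1 h (83.8).

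Relative to the median of the other 10 tables, with a pseudocount of 1, the distal NDR was 2.46-fold higher at CDC43 (1.3 on the log2 scale) and the proximal NDR 3.36-fold higher (1.75). They ranked 5 and 2 of 4828 NDRs in that table. At least 1.5-fold higher levels were found for 0.331% of all NDRs at CDC43. At PCL10 the distal NDR was 1.52-fold higher (0.60) and the proximal 1.64-fold (0.72), ranking 9 and 6, with 0.186% of NDRs at 1.5-fold or more. The distal value at PCL10 lies at the threshold of 0.58, and it was 0.57 when OLE1, LSM4, VHR1, MBR1 or MNR2 was left out of the reference. The proximal value was then 0.60. Since STR3 was chosen with these tables in view, nothing is read from the counts.

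At the other 9 VPs neither NDR was 1.5-fold higher. The reference is made of other targeted tables and control reads are part of every level, so this does not show an absence of contact. The distal value was 0.36 at SHC1 (rank 62), 0.27 at YBP2 (rank 193) and 0.16 at PUS2 (rank 312). It was -0.03 at LHS1, -0.14 at OLE1, -0.21 at VHR1, -0.24 at MBR1 and -0.25 at LSM4. At MNR2 it was -0.44, the lowest of the 4828 NDRs in that table, while the proximal NDR stood at -0.40. The proximal value was lower still at LSM4 (-0.51) and VHR1 (-0.46). The share of all NDRs at 1.5-fold or more was 0.228% at YBP2, 0.124% at PUS2, 0.0829% at OLE1, 0.373% at SHC1, 0.104% at LSM4, 0.414% at VHR1, 0.394% at LHS1, 0.352% at MBR1 and 1.18% at MNR2.

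**Figure D2:**
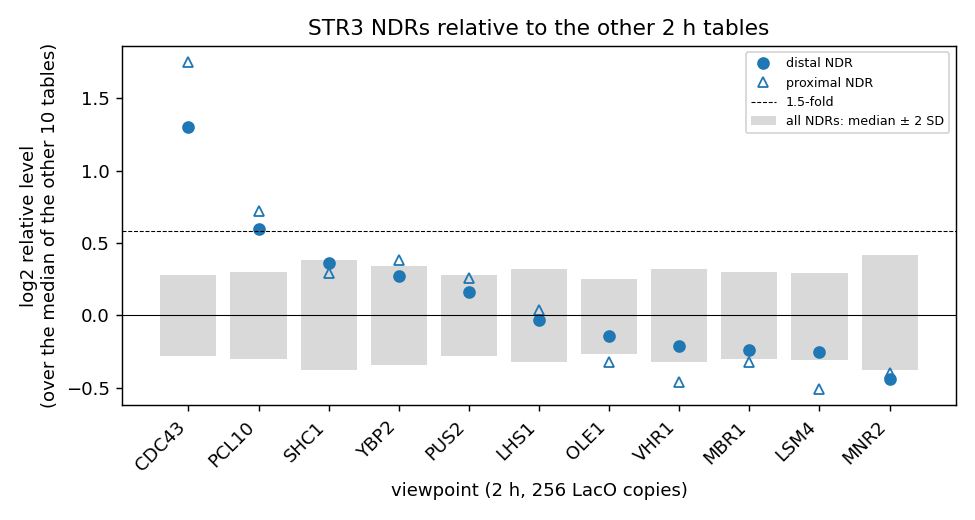
Log2 level of the distal (filled circles) and proximal (open triangles) STR3 NDRs relative to the median of the other 10 tables, for each VP at 2 h in order of the distal value. Grey bars span the median ± 2 SD over all NDRs of the table, and the dashed line marks 1.5-fold. CDC43 (1.3 and 1.75) and PCL10 (0.60 and 0.72) are past the line.

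In the CDC43 table, the NDRs above the distal STR3 NDR were all on chromosome VII. The highest was at position 216101, close to CDC43, by LYS5 and the peroxisomal import gene PEX14 (2.77), which checks the label of the array. The proximal STR3 NDR came next, then an NDR at position 217303 by NUT1, a Mediator subunit gene (1.49). The fourth, at position 271748, lies within 1 kb of the starts of MET13, a methylenetetrahydrofolate reductase gene of methionine synthesis, and of SOH1 and SCS3 (1.39, with a level of 2110.5). Just below STR3 was an NDR at position 228367 by the ribosomal protein gene RPL9A (1.10).

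The differences between VPs were smaller at the neighbours of STR3. The NDR at position 157623, 1.35 kb on the MND1 and GTS1 side, had a relative level of 0.39 at CDC43 and a level of 45.1 to 72.7 over the 11 tables. On the other side the nearest was at position 152849 by TPN1, a vitamin B6 transporter gene, 3.42 kb away, with 0.30 at CDC43 and 53.8 to 78.4 over the tables. The NDRs at positions 159261 and 159720, upstream of the autophagy kinase gene ATG1, had 0.14 and 0.26.

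Farther out, the NDRs at positions 150653 (COX4), 148977 (RPS26A) and 147951 (CDC55 and RPS26A) had 0.11, 0.09 and -0.09 at CDC43. The NDR at position 162994, nearest to the end of ATG1, had 0.26, and that at 165193 by the Snf1-activating kinase gene TOS3 had 0.34. The last, at position 166083 and 9.81 kb from STR3, also by TOS3, had 0.65 and was the only neighbour of the 10 past 1.5-fold in that table. Its level was 867.2 at CDC43 against 484.1 to 583.3 with the array on other chromosomes, and it stood above the distal STR3 NDR in all 21 tables. At PCL10 the 10 neighbours ranged from -0.21 to 0.21. Their SD over the 11 tables was 0.06 to 0.22, below both STR3 values.

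**Figure D3:**
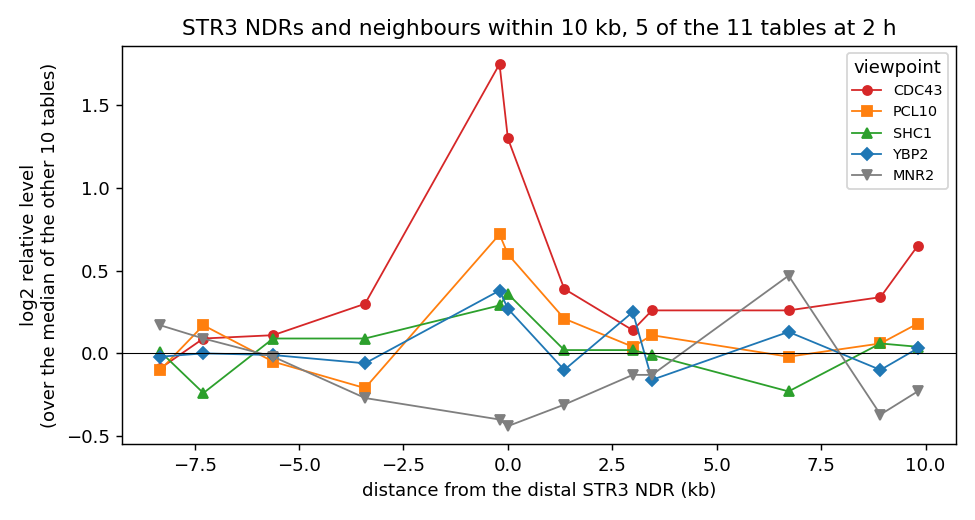
Log2 level relative to the other 10 tables for the 2 STR3 NDRs and their 10 neighbours, by distance in kb from the distal NDR, for 5 of the 11 VPs at 2 h. At CDC43 and PCL10 the 2 STR3 NDRs are the highest points, and the TOS3 NDR at 9.81 kb is next at CDC43 (0.65). At MNR2 both STR3 NDRs are below 0.

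Within a table the distal NDR can be set against its neighbours without any scaling between tables. The NDRs differ in GC sites, however, with 20 in the window of the distal NDR and 4 to 20 in those of the neighbours. As deposited, the distal NDR stood at 928.1 at CDC43, which was 7.74 times the median of its 10 neighbours (2.95 on the log2 scale). The ratio was 5.97 at PCL10, and lay between 3.33 (LSM4) and 4.97 (YBP2) in the rest of the 11 tables with the shared 2 h control. It was 6.12 and 6.27 at TRP2 with and without methionine, above PCL10. At MAT it was 2.12 to 4.61, and at 1 h 1.95 to 3.50. The distal NDR was above the median neighbour in 21 of 21 tables, and the proximal NDR in 4. Besides the TOS3 NDR at position 166083, the ATG1 NDR at position 159261 stood above the distal NDR in 8 tables, those of MAT and of 1 h. The contrast depends on the neighbour summary because the TOS3 NDR is so high: against the neighbours' mean it was 1.91 at CDC43, 1.54 at PCL10 and 0.86 at MNR2 on the log2 scale. Within the 11 tables, CDC43 and PCL10 had the 2 highest values by either summary.

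With the array at YBP2 and induction for 1 h, the distal level was 83.8 with 4 copies, 132.7 with 8, 114.4 with 16 and 132.1 with 256. The proximal level was 23.8, 26.5, 27.6 and 27.8 in the same order. The distal levels were not in the order of the copy number, and the proximal ones differed by less than a 1.5-fold ratio. Relative to the other three tables, the distal NDR was 1.15-fold higher with 256 copies (0.21, SD over all NDRs 0.24), and 2.22% of NDRs were 1.5-fold higher. With 4 copies the distal value was -0.65, with an SD of 0.21 over all NDRs, and ranked 4814 of 4828. The reads behind it were few, with deposited base means of 48.1 (4 copies) to 114.3 (256 copies) at 1 h.

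The same VP and array gave 285.8 at 2 h, against 132.1 at 1 h. The ratio was 2.15 (1.11 on the log2 scale, rank 11 of 4828) at the distal and 2.29 (1.19, rank 7) at the proximal NDR, where 4.68% of NDRs were 1.5-fold higher. This pair was added after its values were seen. Among the 10 neighbours, 1 was past 1.5-fold, the NDR by TPN1 (0.64), and the lowest was at -0.46. Induction time, control group and sequencing all differ between these tables and cannot be told apart.

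Methionine was varied at the TRP2 VP, which lies next to the methionine synthase gene MET6. The distal NDR had 332.4 with methionine and 391.1 without, a ratio of 1.18 (0.23 on the log2 scale). This was within the SD of 0.31 over all NDRs and at rank 942. Among the 706 NDRs with a median level of 100 or more, the median was -0.14 and the SD 0.25. Scaled on NDRs with a median base mean of 100 or more, the distal value was 0.35. The proximal NDR had 41.5 and 59.6, a ratio of 1.43 (0.51, rank 247). Neither reached 1.5-fold, which 3.48% of NDRs did. With other scalings the proximal value passed the log2 threshold of 0.58. It was 0.60 when scaled by the total and 0.63 when scaled on NDRs of 100 or more. Each medium has its own control strain libraries, so a background difference at the STR3 promoter and one in contact with the array cannot be told apart.

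At MAT the level of STR3 differed more between the MATa and MATalpha strains than between sugars. In galactose the cells had been made to express HO, and by the study's text part of them had switched, so there the names stand for the starting strain of a mixed population. By the study's methods, these cells grew in raffinose, then had galactose for 2 h and glucose for a further 1 h. The β-estradiol was added during this whole time, where the labels give 2 h. The distal NDR had 142.3 in the MATa and 283.3 in the MATalpha strain in glucose, and 130.3 and 337.1 in galactose. The MATalpha to MATa ratio at the distal NDR was 1.98 (0.99, rank 292 of 4824) in glucose and 2.58 (1.36, rank 66 of 4828) in galactose. At the proximal NDR it was 2.22 (1.15, rank 191) in glucose and 3.03 (1.60, rank 21) in galactose. At least 1.5-fold higher levels were found for 18.2% of NDRs in glucose and 18.2% in galactose, so a difference past that threshold was common. With base means as deposited the distal values were 0.66 and 0.44, the latter under the threshold. Galactose over glucose was -0.13 in the MATa and 0.25 in the MATalpha strain.

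Among the neighbours, 3 of 10 were 1.5-fold higher in the MATalpha strain in each sugar and 1 was lower, where 19.2% of all NDRs were lower in glucose and 22% in galactose. The ATG1 NDR at position 159261 had 1.53 in glucose and 1.34 in galactose, against 0.99 and 1.36 at the distal STR3 NDR. The RPS26A NDR at position 148977 had 1.34 in glucose, also above STR3, and 0.34 in galactose. Tables of the 2 strains in the same sugar had Pearson correlations across NDRs of 0.876 in glucose and 0.865 in galactose, against 0.958 and 0.973 between sugars within a strain. The control strains differ too, so strain, library and mating type cannot be told apart.

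**Figure D4:**
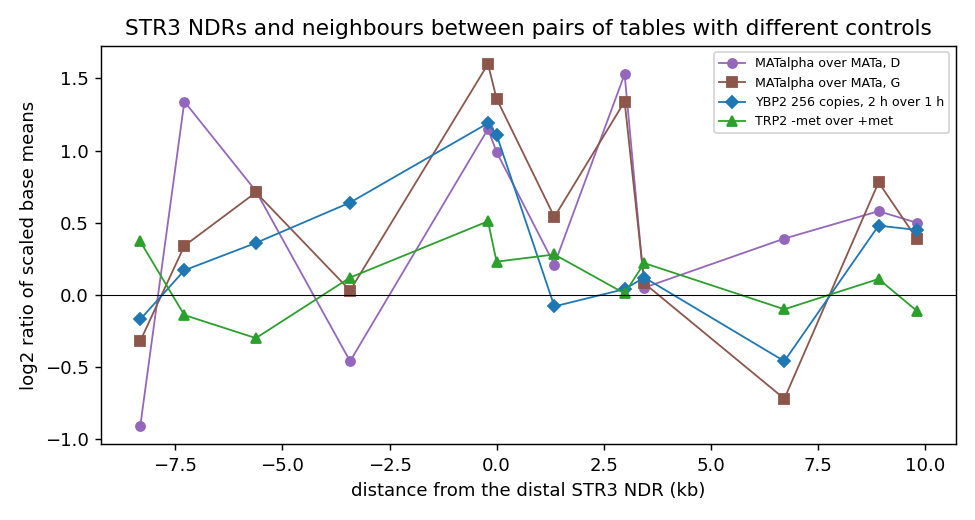
Log2 ratio of scaled base means between pairs of tables for the 2 STR3 NDRs and their 10 neighbours, by distance in kb from the distal NDR. Each pair has different control libraries. STR3 stands above its neighbours for YBP2 at 2 h over 1 h (1.11 and 1.19), is below the ATG1 (1.53) and RPS26A (1.34) NDRs for MATalpha over MATa in D, and is at 0.23 and 0.51 for TRP2 -met over +met.

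The rest of the pathway was followed through 39 genes of methionine, cysteine and sulfate metabolism, of which 36 had an NDR within 1 kb of their start, 47 NDRs in all with STR3 left out. At CDC43, 1 of 47 was 1.5-fold higher, the MET13 NDR described above, and 0 were lower. The same NDR had 1.78 at PCL10, where STR3 was also high, and 0.58 at YBP2. It starts at VII 271748, near the PCL10 gene at 255663 to 256964, while the distal STR3 NDR is 100.0 kb from PCL10. Over the 11 tables the list had 9 values at 1.5-fold or more, at 7 of 47 NDRs (14.9%), against 155 of 4828 NDRs (3.21%). Of the 9 values, 8 were on the chromosome of the VP, and some of these were close to the array. The list was written with results of these data known, so nothing is read from these shares. For all NDRs the chromosome was that of the VP for 129 of 182 values. For STR3 it was so for 4 of 4, which are the 2 NDRs, 195 bases apart, at CDC43 and PCL10. STR3 was chosen with these tables in view, so nothing is read from this count.

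Those named here besides MET13 were picked after their values were seen. The NDR of MUP1, a high-affinity methionine permease gene on VII, had 0.88 at YBP2 and 0.59 at PUS2. MET6 on V had 2.09 at SHC1, and its NDR at position 342398 is near the SHC1 gene at 351698 to 353236. On IX, 2 NDRs of MET30, which encodes an F-box protein that inhibits Met4, had 1.59 and 1.52 at VHR1. They are at positions 267919 and 268427, near the VHR1 gene at 249991 to 251913. The NDR of MET28, a Met4 cofactor gene, at position 384192 on IX, had 0.66 at VHR1. MET16 on XVI had 0.59 at MNR2 with a level of only 16.5. STR3 was below the median at VHR1 and MNR2, and at 0.36 at SHC1.

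Without methionine at TRP2, 5 of the 47 list NDRs (10.6%) were 1.5-fold higher, against 3.48% of all NDRs, and 1 was lower, against 2.78%. The list was written with results of these data known and each medium has its own control, so nothing is read from these shares. The 5 higher values were 1.90 at the sulfate permease gene SUL2, 1.12 at MET1, 0.96 at MET6, 0.83 at MET2 and 0.71 at MET5. MET6 lies next to the TRP2 VP. The other listed NDRs of MET1, MET2 and MET5 had 0.38, 0.23 and 0.11. The MET5 NDR with 0.71 had a median level of only 18.1 over the 11 tables at 2 h. MET32, which encodes one of the factors that read TGTGGC, was the lower one, at -0.68, with a median level of only 9.33 over the 11 tables at 2 h. STR3, with 0.23 and 0.51 by the same scaling, was not among those past the threshold.

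The pattern of the distal NDR over the 11 tables at 2 h was compared with that of 3189 NDRs beyond 10 kb with a median level of 20 or more. The tables share their control libraries, so these correlations are a description. The proximal NDR had a Pearson r of 0.98, and 0.95 without the CDC43 table. The 5 most alike were NDRs by the mRNA-binding protein gene MPT5 (VII 167500, r = 0.91), the recombination gene RAD54 (VII 196550, 0.90), VMA10 and 2 other genes (VIII 186927, 0.88), the kinase gene RCK1 (VII 206319, 0.88) and INO80 and ARO2 (VII 226146, 0.87). Of these, 4 lie on chromosome VII within 69.9 kb of STR3, on the side of CDC43. Chromosome VII holds 298 of the 3189 NDRs compared and 12 of the 20 most alike. Without the CDC43 table the r of the 5 was 0.65 to 0.76, and none of the 5 was still among the most alike. Of the 10 neighbours, the TOS3 NDR at position 166083 had the highest r (0.93) and the NDR at position 147951 the lowest (-0.65).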

How the data were processed

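MTAC libraries were made from methylated DNA of budding yeast. By the authors' notes, fastp 0.23.2 trimmed the reads, BWA 0.7.17 placed them on sacCer3 and Picard removed duplicates. Reads were counted per NDR with featureCounts 2.0.3, with fragments over several NDRs counted in each. The authors' deposited base mean has the unit of a signal: reads divided by DESeq2 1.38.0 size factors, averaged over the targeted and control libraries of a table. It is pooled and carries no spread, so no test was made from it. The 6 other columns of each table hold the authors' comparisons (log2 fold change, its error, Wald statistic and p-values) and were not used, so the spread they hold is not given here. There were 0 columns of unmapped samples. Depth per library is not in these tables. The table totals of base mean were 168457 to 477468.

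With Python 3.11.15 and pandas 2.3.3, tables were scaled by the median ratio to the geometric mean over NDRs with a median base mean of 10 or more. The relative level is log2 of the scaled level plus 1 over the median of the other tables plus 1, and 1.5-fold was the threshold. Such log2 ratios understate changes of low NDRs. The method was tested on simulated data. The table of MATa in glucose lacks 4 NDRs. A gene was assigned to NDRs up to 1 kb from its start (RefSeq R64, whose chromosome lengths hold all NDR positions). Named were the STR3 NDRs, those within 10 kb, the 5 most alike in pattern, list members past the threshold at the VP where STR3 was highest, and NDRs ranking beside STR3, with exceptions stated. Other scalings, references, pseudocounts, windows, likeness measures and thresholds were tried. The members and lists were chosen with earlier results of these data known. Libraries of Mlp1_M.CviPI, M.CviPI and the MLP1/2 mutant were not analysed here.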

Additional observations from a re-analysis of the deposited data

How the results depend on the processing

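Each base mean is the authors' mean over 4 libraries, so the spread between replicates is not known, no library could be left out, and low NDRs are the least certain. No paired analysis was possible because no result comes from a test and the tables hold no values per replicate. The distal level at CDC43 was 639.9 when scaled by the total and 928.1 as deposited, where its relative level was 1.49; against the lowest other table it was 1.64. Over references leaving out each table in turn it was 1.27 to 1.34. The value for 256 copies at 1 h was 0.65 against the lowest table, and YBP2 at 2 h over 1 h was 1.61 as deposited. Of the 5 NDRs most alike, 0 were shared with the Spearman correlation, 1 with Pearson over 21 tables and 0 without the CDC43 table. At CDC43 the distal NDR over its neighbours was 2.95, and 2.73 within 5 kb, 3.37 within 20 kb and 1.91 over their mean. At YBP2 with 4 copies, the distal NDR over the mean of its neighbours was -0.01, against 0.97 over their median. Scaling on NDRs of 100 or more or without chromosome VII, the left-out tables and the pair of YBP2 tables were chosen after seeing the data.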
